A study of Mus musculus with 8 samples.

Results

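Inward rectifier potassium (Kir) channels were examined as 8 genes: Kcnj2, Kcnj4 and Kcnj12 of the Kir2 group, Kcnj3, Kcnj6 and Kcnj9 of the G protein-gated GIRK group, Kcnj11 of the ATP-sensitive channel, and Kcnj16 (Kir5.1). They were picked by gene symbol for their known roles. The rule used no measured value, but earlier results of these data were known when the choice was made. All 8 were found among the 25834 genes of the count table. The data were RNA-seq counts from the hippocampus of 8 male mice, with 4 control and 4 SAP97-cKO animals and 1 library per mouse. SAP97-cKO mice carried a Nestin-cre transgene and 2 floxed copies of SAP97 (gene Dlg1), a PDZ scaffold protein of the synapse and of epithelial junctions. Nestin drives Cre in neural precursors, so neurons and glia derived from them lose the gene, while blood vessel, meningeal and microglial cells are not its main targets. The controls were littermates of the Nes-cre, SAP97 fl/fl and wild-type genotypes, and the sources used here do not tell which of these each control library came from, nor the age of the mice at RNA isolation.

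Kir channels pass potassium more easily into the cell than out of it and hold the resting membrane potential near the potassium equilibrium. Each channel is a tetramer, and each subunit needs the membrane lipid PIP2 to open. Kir2 channels are constitutively active and set the excitability of neurons such as dentate granule cells. GIRK channels open when Gi/o-coupled receptors release G protein βγ subunits, and carry slow inhibitory currents in hippocampal neurons. Kir6.2, made by Kcnj11, forms the neuronal ATP-sensitive channel with a sulfonylurea receptor, and Kir5.1 pairs with the astrocytic subunit Kir4.1, made by Kcnj10. Kir2 subunits are known binding partners of SAP97, and they bind it through the last residues of their C terminus.

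The coding ends of the 8 genes are shown because this is the stretch by which PDZ proteins such as SAP97 recognise a Kir subunit. Each is the last 30 bases of the principal coding sequence, stop codon included, read 5′ to 3′ from the GENCODE M21 transcripts of GRCm38. Capitals mark the last 3 codons before the stop where they encode a class I PDZ ligand, that is serine or threonine, then any residue, then valine, isoleucine or leucine at the end.
Kcnj2: aggcccttaaggcgagaaTCGGAGATAtga
Kcnj4: atttcctatcgcagggaaTCTGCCATCtga
Kcnj12: cggccctacagacgggagTCGGAGATTtga
Kcnj6: gcaaacctagagaatgaaTCCAAAGTAtag
Kcnj9: ccacccccagagagtgagTCCAAGGTGtga
Kcnj3: agaaaaatgaactctgaccgtttcacatag
Kcnj11: tttagcatctctccagattccttgtcctga
Kcnj16: aataggatctccatggaatcccagatgtag

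A class I ligand closed 5 of the 8 coding sequences, those of Kcnj2, Kcnj4, Kcnj12, Kcnj6 and Kcnj9. Over all 21523 genes with a complete coding sequence in the annotation, 1050 (4.88%) ended in this pattern. The 2 shares make no test, because the Kir2 genes were chosen as known SAP97 binders and the members are related genes. The share over all genes also used the longest coding sequence of each gene, not the principal one. No such ending was present in Kcnj3, Kcnj11 or Kcnj16. The annotation held 3 different coding ends for Kcnj6 and 2 for Kcnj3, and gene-level counts do not separate them. The potassium channel signature of the pore (threonine, any residue, glycine, tyrosine or phenylalanine, glycine) was found in all 8. Among the proteins of the Kir2 members the aligned residues were 67.1% to 72% identical. Kcnj6 and Kcnj9 were 69.4% identical, and Kcnj3 was 55% identical to Kcnj6 and 56.5% to Kcnj9.

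The coding ends lie on GRCm38 at chr11:111073041-111073070 on the plus strand (Kcnj2), chr15:79484440-79484469 on the minus strand (Kcnj4) and chr11:61070438-61070467 on the plus strand (Kcnj12). Those of the GIRK genes lie at chr16:94762360-94762389 on the minus strand (Kcnj6), chr1:172322863-172322892 on the minus strand (Kcnj9) and chr2:55595368-55595397 on the plus strand (Kcnj3). Those of Kcnj11 and Kcnj16 lie at chr7:46098725-46098754 on the minus strand and chr11:111025744-111025773 on the plus strand. Some of these genes are chromosomal neighbours: Kcnj16 ends 38.2 kb before Kcnj2 starts, Kcnj9 lies 11.9 kb from Kcnj10, and Kcnj11 lies 3.8 kb from Abcc8, which encodes its sulfonylurea receptor.

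Library totals lay between 37388177 and 37426572 counts after the authors' resampling to a common depth. Dlg1 counts checked the labels: SAP97-cKO libraries held 2393 ± 470 TMM-normalized counts (SD, n = 4) and controls 4338 ± 336 (SD, n = 4), with no overlap. This gene total covers all exons and does not measure how completely the knockout worked. The paper reported a far larger fall for reads on a single exon of SAP97. Counts scaled by the TMM method, which corrects for differences in library composition, are called normalized counts in what follows. Neuronal markers were abundant in every library, with a summed level of 7817 to 9210 CPM (counts scaled to a common library size) over 10 genes and overlapping groups. Choroid plexus markers varied most between mice, with a sum over 11 genes of 179 to 6923 CPM in controls and 104 to 2379 CPM in SAP97-cKO, and control 2 and SAP97-cKO 2 were the highest of their groups. Meningeal fibroblast markers (12 genes, 287 to 514 CPM in controls and 171 to 280 CPM in SAP97-cKO) and pericyte and smooth muscle markers (9 genes, 213 to 234 and 130 to 210 CPM) did not overlap between the genotypes in their sums. Of 10 oligodendrocyte markers, 7 were lower at an unadjusted p under 0.05 (sum of 6035 to 9652 CPM in controls and 4672 to 8457 CPM in SAP97-cKO), while all 6 CA1 pyramidal cell markers were fitted higher (631 to 792 and 755 to 936 CPM). Over all genes tested, 11.7% were at an unadjusted p under 0.05 in either direction and 47.1% were fitted higher. The part of the marker shifts in the Kir levels was not tested. No marker of any list was at 0 reads in all 8 libraries. Fewer cells of a type and less RNA per cell cannot be told apart in bulk tissue.

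None of the 8 Kir genes passed an adjusted p under 0.25, the threshold that the study used, in the edgeR quasi-likelihood test. Over all 16251 genes tested, 48 (0.295%) passed. Kcnj4 was the only member of the 8 at an unadjusted p under 0.05, a level reached by 11.7% of all genes tested. In 0 of the 8 did the normalized counts of the genotypes separate without overlap, against 6.25% of all genes tested. The fitted level was higher in SAP97-cKO for 6 members and lower for 2, while 47.1% of all genes tested were fitted higher. The median log2 fold change of the members was 0.176, beside -0.012 over all genes tested. The raw counts of the members ran from 170 to 6216 per library.

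**Figure D1:**
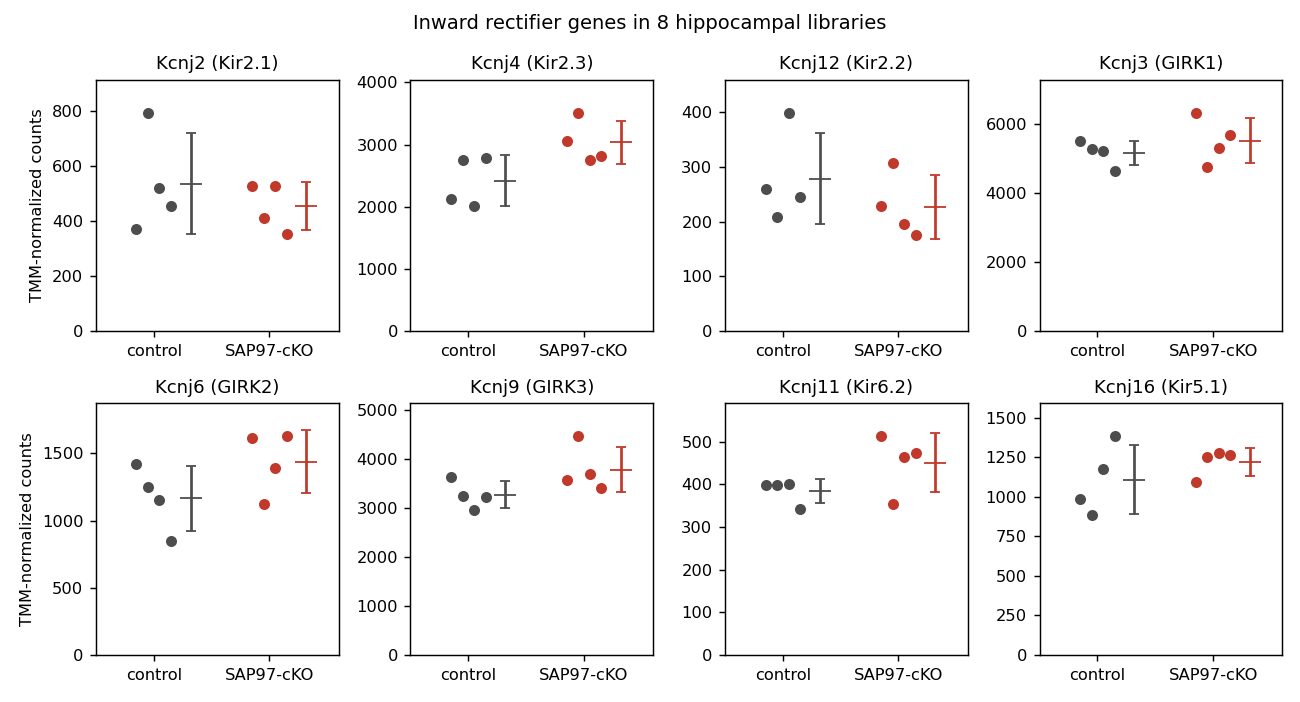
TMM-normalized counts (y axis, from 0) of the 8 Kir genes in each of 4 control (grey) and 4 SAP97-cKO (red) libraries, in order of replicate number, with the mean and SD of each group beside the points. The groups overlapped in all 8 panels, and Kcnj4 had 3 of 4 SAP97-cKO libraries above the highest control.

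Kcnj4 encodes Kir2.3, a Kir2 subunit of forebrain neurons. Its normalized counts were 2129, 2757, 2009 and 2779 in controls 1 to 4, and 3056, 3515, 2746 and 2824 in SAP97-cKO 1 to 4. Controls fell into a lower and a higher pair, and 3 of the 4 SAP97-cKO libraries were above every control, while SAP97-cKO 3 lay just under the higher pair. The means were 2419 ± 407 and 3035 ± 346 (SD, n = 4 each), and the log2 fold change was 0.33 (SE 0.12, 95% interval 0.06 to 0.60). This corresponds to an interval of 1.04 to 1.51-fold. The unadjusted p was 0.0229 and the adjusted p was 0.373 in edgeR, and the exact two-sided permutation test gave p = 0.0857 over the 70 assignments of libraries, the smallest possible being 0.0286. DESeq2 placed the gene past the threshold (log2 fold change 0.33, adjusted p = 0.220), and it did so for 6.36% of all genes tested, against 0.295% in edgeR.

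Kcnj2 encodes Kir2.1, the Kir2 subunit with the widest tissue range, including vessels. Controls 1 to 4 held 371.2, 795.2, 521.5 and 456.2 normalized counts, and SAP97-cKO 1 to 4 held 529.5, 412.1, 526.8 and 352.9. Control 2 stood well above the rest, and the remaining 7 libraries were intermixed. The log2 fold change of -0.235 (SE 0.22, interval -0.73 to 0.26) did not pass (edgeR, adjusted p = 0.666), and without control 2 it was 0.018. Control 2 was also the library with the most choroid plexus RNA (Ttr, the transthyretin gene, at 232300 normalized counts against 2158 to 129400 in the others, with Kl at 8670 against 888.1 to 4941 and Clic6 at 4251 against 130.8 to 2537). Control 2 also had the highest meningeal fibroblast marker sum (514 CPM beside 287 to 310 in the other controls). SAP97-cKO 2 had the highest choroid plexus sum of its group, but its Kcnj2 count (412.1) was below those of SAP97-cKO 1 and 3. Whether any of these values are linked was not tested.

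Kcnj12 encodes Kir2.2 and was among the lowest of the members. In controls its normalized counts were 260.1, 209.3, 399.2 and 245.6, and in SAP97-cKO they were 228.1, 307.6, 195.5 and 176.5. Control 3 was the highest library and SAP97-cKO 2 the next, and 2 SAP97-cKO libraries were below every control. The log2 fold change was -0.295 (SE 0.23, interval -0.80 to 0.20, edgeR adjusted p = 0.599). It moved to -0.060 without control 3, to -0.477 without SAP97-cKO 2 and to -0.188 without SAP97-cKO 4. Control 3 was also the highest library in Rora and Prkcd, genes that are abundant in thalamic neurons (3120 against 1624 to 2391 normalized counts, and 2022 against 699.8 to 1310), but not in Rorb (622.5 against 539 to 708.8). The part of this in Kcnj12 was not tested.

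**Figure D2:**
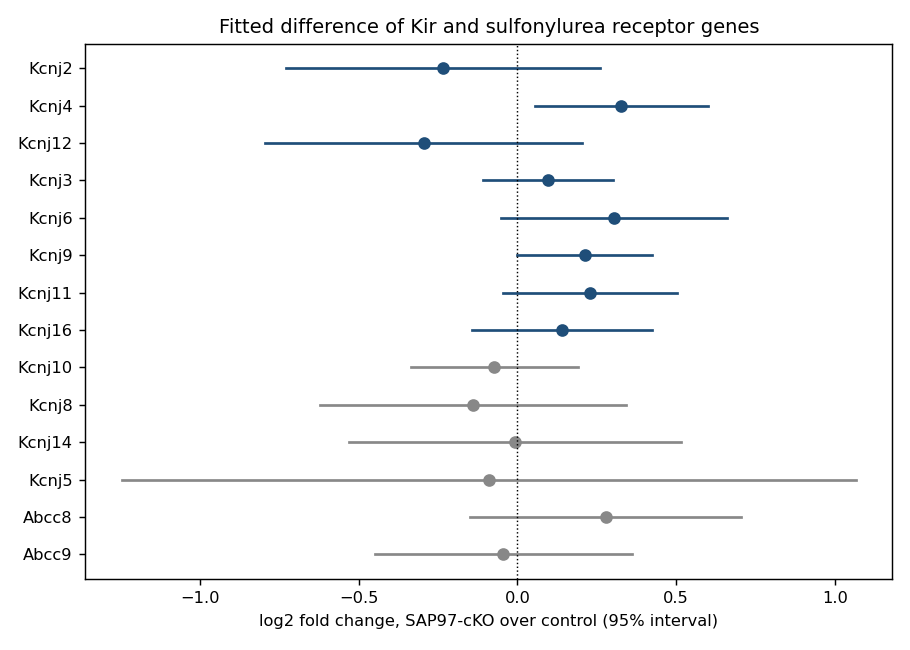
Log2 fold change of SAP97-cKO over control (x axis, points) with its 95% interval (lines) for the 8 members (blue) and for other Kir and sulfonylurea receptor genes (grey), from the edgeR fit. The interval includes 0 for 7 of the 8 members and lies above 0 for Kcnj4.

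Among the GIRK genes, Kcnj9 had the smallest p. It encodes GIRK3, a subunit that steers channels through endosomes and binds the PDZ sorting protein SNX27. The counts were 3638, 3253, 2963 and 3220 in controls, and 3574, 4465, 3703 and 3401 in SAP97-cKO, after normalization. Of the controls, 3 of 4 lay below every SAP97-cKO library, and control 1 lay inside the SAP97-cKO range. The means of 3269 ± 278 and 3786 ± 469 (SD, n = 4 each) gave a log2 fold change of 0.21 (SE 0.10, unadjusted p = 0.0502, adjusted p = 0.425 in edgeR; exact permutation p = 0.0857). Without control 1 the adjusted p was 0.244 and the log2 fold change 0.27, which passed the threshold in a fit that called 10.2% of all genes tested. Without SAP97-cKO 2, its highest library, the log2 fold change was 0.123 (edgeR adjusted p = 0.545). An antisense gene, Gm36937, overlaps Kcnj9 with 40 reads in all, beside 28196 of Kcnj9.

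Kcnj6 encodes GIRK2, the subunit that brings GIRK channels to the neuronal surface. Normalized counts of 1417, 1246, 1154 and 844.4 in controls stood against 1616, 1124, 1387 and 1627 in SAP97-cKO. Control 4 was the lowest library and SAP97-cKO 2 the lowest of its own group, and 2 SAP97-cKO libraries exceeded every control. The log2 fold change was 0.30 (SE 0.16, interval -0.05 to 0.66, edgeR adjusted p = 0.474). It was 0.178 without control 4, and the upper end of the interval with all libraries is 1.58-fold.

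Kcnj3 encodes GIRK1, which needs another GIRK subunit to reach the membrane. It had the most counts of the 8, with 5497, 5278, 5213 and 4649 in controls and 6330, 4760, 5309 and 5681 in SAP97-cKO. As for Kcnj6, control 4 and SAP97-cKO 2 were at the bottom of their groups, while the highest library was SAP97-cKO 1. The log2 fold change was 0.10 (SE 0.09, edgeR adjusted p = 0.666), and its interval of 0.928 to 1.23-fold was the narrowest of the members. With 1 library left out the log2 fold change ran from 0.032 (without SAP97-cKO 1) and 0.051 (without control 4) to 0.163 (without SAP97-cKO 2), and it was 0.052 without TMM scaling. A noncoding gene on the opposite strand, Gm26794, overlaps Kcnj3 and held 2607 reads against 42659, and no source used here says whether strand was used in counting.

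Kcnj11 encodes Kir6.2, the pore of the ATP-sensitive potassium channel that links membrane potential to metabolism. Its normalized counts were 399.2, 397.6, 401.1 and 341.6 in controls, against 513.2, 353.4, 464 and 474.4 in SAP97-cKO. The first 3 controls were nearly equal, 3 of 4 SAP97-cKO libraries were above all controls, and SAP97-cKO 2 was below those 3 controls. The fitted log2 difference was 0.23 (SE 0.12, interval -0.05 to 0.50, edgeR adjusted p = 0.478). Abcc8, the gene of the sulfonylurea receptor SUR1 that completes the neuronal channel, had 955.5, 1067, 923.6 and 680.4 normalized counts in controls, and 1255, 692.8, 1261 and 1190 in SAP97-cKO. It too had 3 of 4 SAP97-cKO libraries above all controls and SAP97-cKO 2 near the lowest control, with a log2 fold change of 0.28 (SE 0.19, edgeR adjusted p = 0.565).

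Kcnj16 encodes Kir5.1, which conducts little on its own and makes a pH-sensitive channel with Kir4.1 in astrocytes. Controls held 987.5, 886.9, 1175 and 1382 normalized counts, and SAP97-cKO libraries 1091, 1253, 1276 and 1263. All SAP97-cKO values lay inside the control range, and their SD (87.2) was smaller than that of the controls (218). On the log2 scale the fold change was 0.14 (SE 0.13, edgeR adjusted p = 0.658). It was 0.047 without control 2, 0.089 without control 1 and 0.265 without control 4 (edgeR adjusted p = 0.898, 0.767 and 0.366). Its partner gene Kcnj10 had 9435 ± 1368 normalized counts in controls and 8970 ± 1107 in SAP97-cKO (SD, n = 4 each; log2 fold change -0.073, SE 0.12). The summed level of 10 astrocyte markers overlapped between genotypes (7119 to 8239 and 7325 to 8949 CPM).

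Counts of different genes were compared only after division by the length of each gene's annotated exons, as CPM per kb of exon. On this scale the control means were 30.1 ± 5.05 CPM per kb for Kcnj4, 26.5 ± 1.85 for Kcnj3 and 20.4 ± 1.74 for Kcnj9 (SD, n = 4 each). Kcnj16 followed with 7.53 ± 1.48 and Kcnj6 with 4.08 ± 0.841 CPM per kb. The lowest group held Kcnj11 with 2.80 ± 0.210, Kcnj12 with 2.71 ± 0.809 and Kcnj2 with 2.63 ± 0.901 CPM per kb. The control ranges of Kcnj4 and Kcnj3 overlapped, and those of Kcnj11, Kcnj12 and Kcnj2 did too, so their order within these sets was not resolved. The other neighbours did not overlap in controls. The place of Kcnj6 rested on the length used: with the longest annotated transcript in place of all exons it had 8.59 CPM per kb and stood above Kcnj16 with 8.01. Of all Kir genes the astrocytic Kcnj10 was highest, with 46.7 ± 6.77 CPM per kb.

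**Figure D3:**
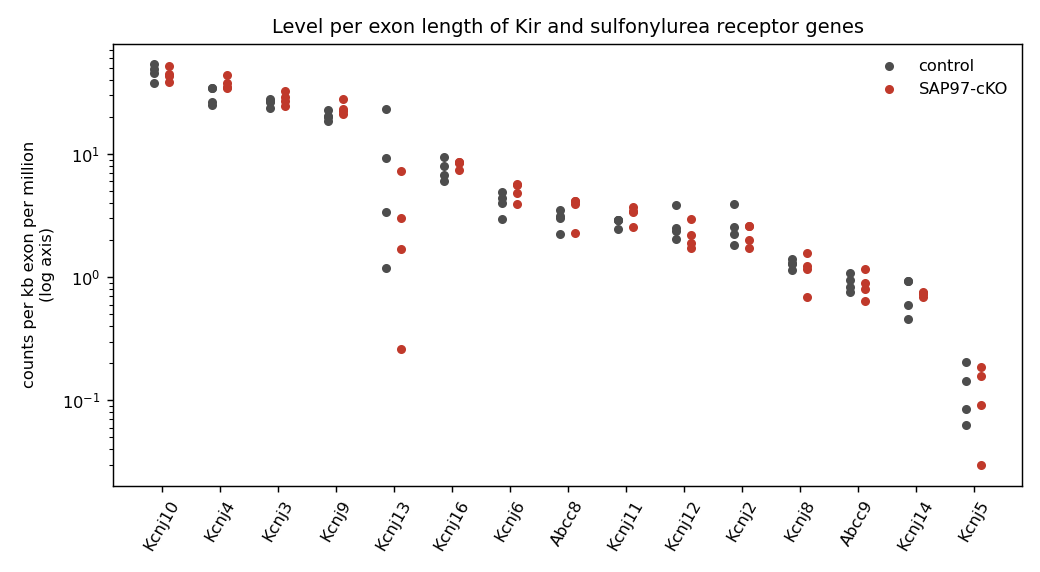
CPM per kb of annotated exon (y axis, log scale) of Kir and sulfonylurea receptor genes in control (grey) and SAP97-cKO (red) libraries, ordered by control mean. Kcnj4, Kcnj3 and Kcnj9 lay well above the other members, and Kcnj13 ranged from 0.262 to 23.2 between libraries.

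Kcnj4 made up most of the Kir2 level per length, here the sum of Kcnj2, Kcnj4 and Kcnj12 without Kcnj14 (Kir2.4). Its share of the Kir2 sum was 85.9%, 85.2%, 79.5% and 88.2% in controls 1 to 4, and 88.7%, 89.7%, 88.4% and 91.0% in SAP97-cKO 1 to 4. The ranges of the genotypes did not overlap, but the highest control and the lowest SAP97-cKO library were close together. The share of Kcnj4 in the sum of all 8 members overlapped (27.3% to 35.3% in controls and 32.2% to 37.7% in SAP97-cKO). So did the shares of Kcnj2 and Kcnj12 in the Kir2 sum. These shares were scores over chosen members and were given no test. Kcnj2 took 7.38 ± 1.91% of the Kir2 level in controls and 5.36 ± 1.23% in SAP97-cKO, and Kcnj12 took 7.93 ± 3.23% and 5.18 ± 0.712% (SD, n = 4 each). In the GIRK group Kcnj3 made up 52.0 ± 1.72% in controls and 49.6 ± 4.50% in SAP97-cKO, Kcnj9 40.1 ± 2.25% and 41.5 ± 5.76%, and Kcnj6 7.96 ± 1.14% and 8.84 ± 1.34%. The share of Kcnj6 rested on its length: with the longest annotated transcripts it was 14.8 ± 1.98% in controls and 16.2 ± 2.35% in SAP97-cKO (SD, n = 4 each). The GIRK shares overlapped for all 3 genes, and SAP97-cKO 2 was the one library in which Kcnj9 (49.6%) exceeded Kcnj3 (43.4%).

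**Figure D4:**
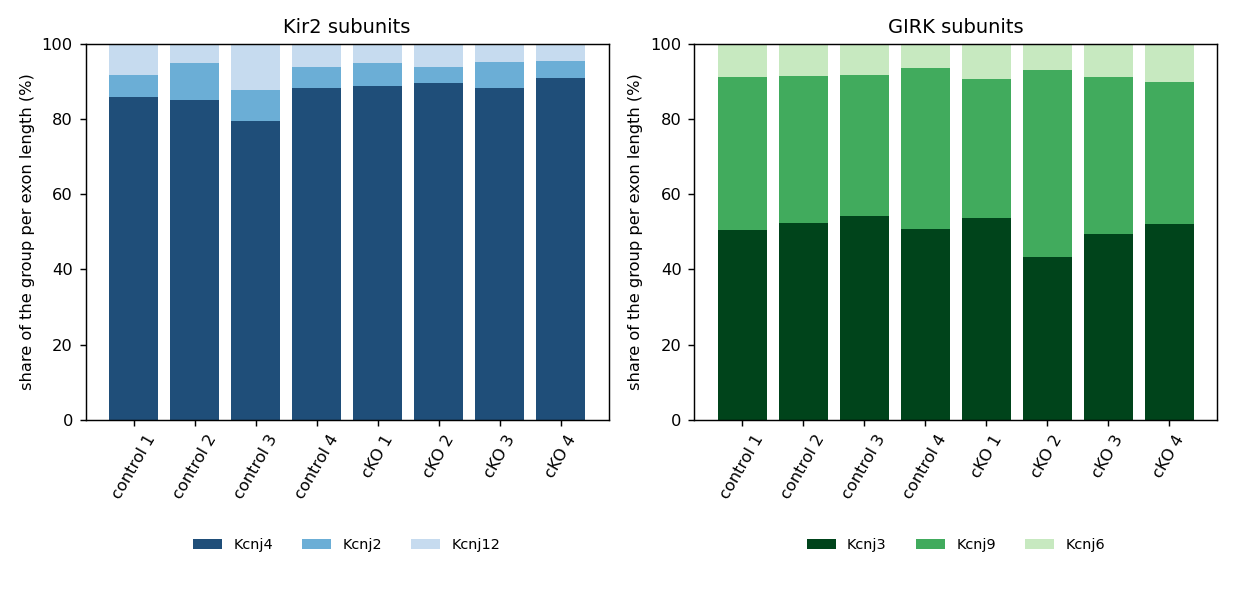
Share (y axis, percent) of each subunit in the summed level per exon length of the Kir2 members (left) and of the GIRK members (right), for each library. Kcnj4 made up 79.5% to 91.0% of the Kir2 sum, and Kcnj6 was the smallest GIRK share in every library.

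Over the 8 libraries, Kcnj3, Kcnj6 and Kcnj11 varied together. Pearson's r of their log2 levels was 0.913 for Kcnj3 and Kcnj11 (exact permutation p = 0.000918), 0.892 for Kcnj3 and Kcnj6 (p = 0.00300, exact) and 0.887 for Kcnj6 and Kcnj11 (p = 0.00208, exact). Spearman's rho was 0.881, 0.976 and 0.857 (exact permutation p = 0.00724, 0.000397 and 0.0107). These were the 3 of 28 member pairs with an adjusted p under 0.05 (0.0257, 0.0280 and 0.0280 for r, exact permutation). Among the rank correlations, the pair of Kcnj3 and Kcnj6 passed (adjusted p = 0.0111, exact permutation), and the other two did not (both 0.09996). The values of r stayed at 0.788, 0.878 and 0.863 without the 2 libraries farthest from the median, and at 0.926, 0.890 and 0.839 for deviations from the genotype means. Without TMM scaling, r was 0.872, 0.822 and 0.851, and 0 pairs passed after adjustment (adjusted p = 0.0858, 0.131 and 0.0858, exact permutation).

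Many other genes shared this pattern across the libraries. Of 16250 other genes tested, 0.345% had an r with Kcnj3 at least as high as Kcnj11 had, and 3.10% had an r with Kcnj6 at least as high as Kcnj11 had. Control 4 and SAP97-cKO 2 were the lowest libraries of their groups for Kcnj3, Kcnj6, Kcnj11 and Abcc8. They were also the lowest in the summed level of 7 dentate granule cell markers (440, 422, 383 and 329 CPM in controls and 511, 214, 454 and 399 CPM in SAP97-cKO). Of the 3 most abundant granule cell genes, Prox1 and Dsp were lowest in these libraries within each group (Prox1 3397 and 2435 normalized counts, Dsp 1544 and 901.9). C1ql2 was low in SAP97-cKO 2 (1394) but not in control 4 (2822, within the control range of 2385 to 3015), and C1ql3 (2860) and Tdo2 (420.3) were highest of the controls in control 4. The pattern was not limited to granule cell genes. The summed CA3 and CA2 pyramidal cell markers were also lowest of their groups in control 4 (1049 CPM) and SAP97-cKO 2 (1190 CPM), as were the PIP2 synthesis genes (1161 and 1353 CPM). The part of cell content in these relations was not tested.

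**Figure D5:**
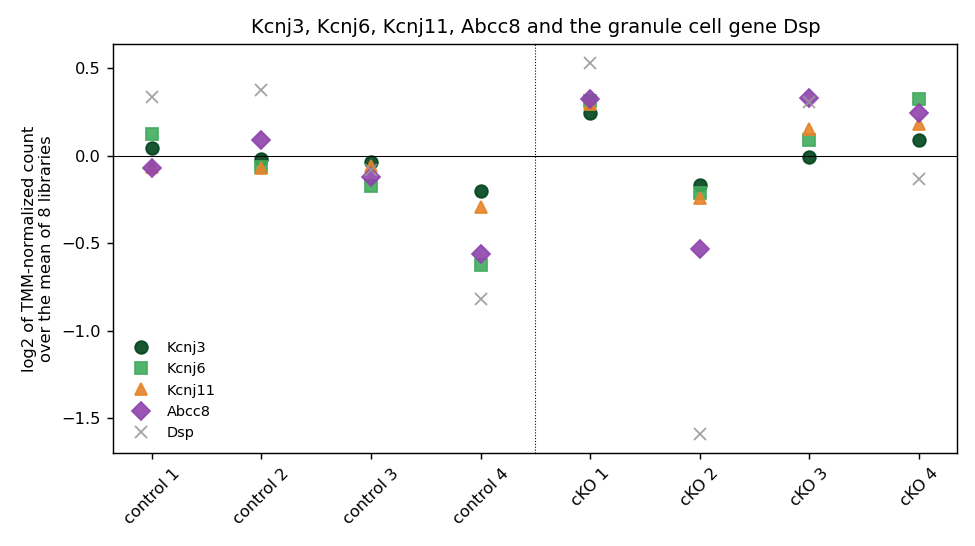
Normalized counts of Kcnj3, Kcnj6, Kcnj11, Abcc8 and the granule cell gene Dsp in each library, as log2 of the ratio to the mean of all 8 libraries (y axis); the dotted line parts control from SAP97-cKO libraries. Control 4 and SAP97-cKO 2 were the lowest of their groups for all 5 genes; other granule cell markers, such as C1ql3, were not low in control 4.

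The other members did not vary together to this degree. The next pair by p was Kcnj4 and Kcnj9, with r of 0.657 and rho of 0.405 (exact permutation p = 0.0771 and 0.327, adjusted p = 0.540 and 1.0). Over all 28 pairs r ran from -0.511 to 0.913. The genes whose levels were most like those of each member over the 8 libraries, by Pearson's r of log2 CPM, were Glis2 (0.982) and Fhad1 (0.956) for Kcnj2, Ica1l (0.974) and Dact2 (0.959) for Kcnj4, and Scx (0.970) and Nrg1 (0.964) for Kcnj12. For the GIRK genes they were Kdm4c (0.971) and Chst15 (0.966) with Kcnj3, Cnksr2 (0.998) and Prickle2 (0.993) with Kcnj6, and Pdgfb (0.974) and Ftsj3 (0.967) with Kcnj9. Sbf1 (0.988) and 2010300C02Rik (0.984) were most like Kcnj11, and Ccdc85c (0.977) was among those most like Kcnj16. These are descriptions over 8 libraries, picked from all genes tested.

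The remaining Kir subunits gave no calls either, which does not show that their levels were unchanged. Of 7 genes, Kcnj1 was not found in the table, and Kcnj15 had 9 reads in all and was not tested. Of the other 5, 0 passed the threshold, beside 0.295% of all genes tested. The log2 fold change was -0.14 for Kcnj8 (SE 0.22), the Kir6.1 gene of pericytes and vascular smooth muscle, and -0.044 (SE 0.18) for Abcc9, whose product SUR2 pairs with it. It was -0.090 for Kcnj5 (SE 0.52), which encodes the mainly cardiac GIRK4 and held 5.19 to 35.9 normalized counts, and -0.007 for Kcnj14 (SE 0.24), which encodes Kir2.4. Kcnj13 encodes Kir7.1, an epithelial channel of the choroid plexus. It held 161.1, 1100, 442.9 and 56.3 normalized counts in controls and 80.4, 349.4, 144.9 and 12.5 in SAP97-cKO, and was fitted at -1.58 on the log2 scale with an SE of 0.91 (edgeR adjusted p = 0.501). Its order of libraries within each genotype was that of the choroid plexus marker sum.

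With 0.295% of all genes tested called, receptors that open GIRK channels gave 0 calls among 23 genes tested of 24. Of these, 19 were fitted higher in SAP97-cKO and 4 lower, and the median log2 fold change was 0.129. Over all genes tested, 47.1% were fitted higher. At an unadjusted p under 0.05 there were 3 receptor genes, all higher, while 11.7% of all genes tested reached that level in either direction. Sstr3, a somatostatin receptor of neuronal cilia, had the smallest p (1374, 1144, 1039 and 1139 normalized counts in controls, 1278, 1489, 1550 and 1582 in SAP97-cKO; log2 fold change 0.33, SE 0.10, edgeR adjusted p = 0.341). Gabbr2, a subunit of the GABA-B receptor, followed with 0.26 (SE 0.11, edgeR adjusted p = 0.413), and control 4 held its lowest value. The third was the muscarinic receptor gene Chrm4, with 0.39 (SE 0.17).

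G protein subunits and RGS proteins, which gate GIRK channels and shorten their currents, gave 0 calls among 23 genes, beside 0.295% of all genes tested. Their median log2 fold change was 0.056. At an unadjusted p under 0.05, 4 were lower and 1 was higher, beside 11.7% of all genes tested in either direction. The smallest p values were those of Gng11, a γ subunit gene (log2 fold change -0.62, SE 0.21, edgeR adjusted p = 0.352), and of Gnai3, an inhibitory α subunit gene (-0.17, SE 0.06, edgeR adjusted p = 0.375). Gng11 is also expressed in vessel walls, and the summed level of the pericyte and smooth muscle markers was lower in every SAP97-cKO library than in any control, although single markers such as Rgs5 (3350 to 4013 and 2404 to 4027 normalized counts) overlapped. The part of this in Gng11 was not tested.

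Among 15 genes chosen as PDZ scaffold and trafficking partners of Kir2 or GIRK channels, Dlg1 was called lower, as the targeted gene (log2 fold change -0.86, SE 0.12, edgeR adjusted p = 0.143), and 0 were called higher. Dlg4, which encodes PSD-95 (0.21, SE 0.07, edgeR adjusted p = 0.358), and Dlg2, which encodes PSD-93 (0.19, SE 0.07, edgeR adjusted p = 0.376), had the next smallest p. With Apba1 and Akap5 they made 4 genes higher at an unadjusted p under 0.05, reached by 11.7% of all genes tested in either direction. The median of the list was 0.044, and 0.295% of all genes tested were called in either direction. Enzymes that make or cut PIP2 gave 0 calls among 9, beside 0.295% of all genes tested, with a list median of 0.126. Pip5k1c, a kinase that makes PIP2 at synapses (0.18, SE 0.07, edgeR adjusted p = 0.373), and Plcb1, a phospholipase C that cuts it (0.23, SE 0.10, edgeR adjusted p = 0.422), were higher at an unadjusted p under 0.05. Beside these 2 of 9 stands the same 11.7% of all genes tested.

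Summed over the 8 members, counts were 393, 396, 370 and 372 CPM in controls and 453, 433, 417 and 423 CPM in SAP97-cKO. The sums of the genotypes did not overlap, while none of the single genes separated them, against 6.25% of all genes tested. Separation of a sum was not particular to the Kir genes. The sums of the PDZ scaffold and trafficking genes did not overlap either (2313 to 2513 CPM in controls and 2532 to 2596 CPM in SAP97-cKO). The highest control and the lowest SAP97-cKO library of that sum lay close together. Pericyte and smooth muscle markers and meningeal fibroblast markers also separated in their sums, lower in SAP97-cKO. The Kir sum was led by Kcnj3, Kcnj9 and Kcnj4, the members with the most counts, and none of these sums was given a test.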

How the data were processed

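The samples were hippocampal RNA libraries, 1 per male mouse, 4 in each genotype. The authors used STAR 2.5.3a for alignment to GRCm38.p5 and the PORT pipeline to resample reads to a common depth, and deposited whole-number counts per Ensembl gene. Resampling discards reads, so the counts are not the full depth. Their table also holds a deposited log2 fold change with its p-value and its q-value, none of which was used here. Of 25834 gene IDs, 25696 were matched to GENCODE M21 for lengths and coding ends.

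Genes were kept by filterByExpr (minimum count 10, minimum total 15; 16251 genes, 9583 left out), scaled by TMM (factors 0.964 to 1.03) and compared by genotype in edgeR 4.0.16 (R 4.3.3) by its quasi-likelihood test, adjusted by Benjamini-Hochberg over all genes tested, with an FDR under 0.25. The script was tested on simulated data. Single values were compared by exact permutation of libraries, and pairs of members by exact permutation of log2 CPM (2 counts added), adjusted over 28 pairs. No library repeated another (chi-square between libraries of 9.63 to 72.1 for each gene). limma 3.58.1, DESeq2 1.42.0, other scalings and filters, a replicate block and leaving out libraries were alternatives.

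The members and lists were chosen with earlier results of these data known. Named were all members, every other Kir and sulfonylurea receptor gene, Dlg1, genes past the threshold and the 2 of smallest p in each pathway list, the 2 genes most like each member (1 of them is not reported here), and the 3 most abundant markers of a list that moved with one. Chrm4, Apba1, Akap5, C1ql3, Tdo2, Rgs5 and the overlapping genes were singled out after their values were seen. Plots were drawn with matplotlib 3.10.9.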

Additional observations from a re-analysis of the deposited data

Results flagged for a closer look

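In 7 of 64 groups of 4 libraries looked at, 1 library stood apart from the other 3 by a gap past Dixon's critical share of the group's range, which chance gives in about 1 in 20 groups. Among the Kir genes this was control 4 for Kcnj11, at 341.6 normalized counts beside 397.6 to 401.1 (gap 0.941 of the range), and SAP97-cKO 1 for Kcnj16, at 1091 beside 1253 to 1276 (0.880). For Abcc8 it was SAP97-cKO 2, at 692.8 normalized counts beside 1190 to 1261 (0.874).

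The other flags were on summed markers. SAP97-cKO 1 was above the rest of its group in oligodendrocyte markers (8457 CPM beside 4672 to 5114, 0.883) and in oligodendrocyte precursor markers (0.855). Control 4 stood apart in microglial markers (535 CPM beside 408 to 421, 0.897). Control 2 did in meningeal fibroblast markers (514 CPM beside 287 to 310, 0.899).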

How the results depend on the processing

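Over 16 alternatives, 124 of 128 log2 fold changes of the members kept their direction and their side of the threshold. Kcnj2 changed sign without control replicate 2 (0.018, in a range of -0.375 to 0.018 over the fits with a library left out) and in a fit, chosen after seeing the data, without the library highest in choroid plexus markers of each genotype (0.063). In that fit Kcnj4 was at 0.318, Kcnj3 at 0.173, Kcnj6 at 0.439, Kcnj9 at 0.121, Kcnj16 at 0.034, Kcnj11 at 0.346 and Kcnj12 at -0.592 (edgeR, adjusted p from 0.572 to 0.939). There 4 members were at an unadjusted p under 0.05 in edgeR, beside 838 lower and 571 higher of 16254 genes tested. Kcnj4 passed in DESeq2 and Kcnj9 without control replicate 1, so 1 member was called in each of these and 0 to 1 over the fits with a library left out. Genes called lower over the whole table numbered 46 and higher 2. They numbered 588 and 445 in DESeq2, 94 and 1 without scaling, 89 and 15 without a filter, 0 and 0 at an FDR of 0.05, and 2 and 0 without the libraries richest in choroid plexus. Without each library in turn they ranged from 0 to 960 and from 0 to 715. The cause was not tested. At an unadjusted p under 0.05 there were 1139 lower and 768 higher in edgeR, and 1131 and 916 in DESeq2. Kcnj6, Kcnj9 and Kcnj11 had 8.59, 22.7 and 3.28 CPM per kb by longest transcript, which kept 6 of 7 neighbours in order; without scaling, 0 of the 3 correlated pairs passed.

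With the replicate number as a block, 234 genes were called lower and 22 higher, and Kcnj4 was at 0.336 (edgeR, adjusted p = 0.309). The labels do not say that a number pairs mice: deviations of same-numbered libraries correlated at -0.062 to 0.259, and 5 of 8 libraries correlated best with their own number. Depth limits Kcnj5 and Kcnj15, with 170 and 9 reads in all.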
